A study of Mus musculus with 26 samples.

Results

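A set of 9 genes of the first epithelium of the embryo was followed in the scRR-seq data of 8-cell mouse blastomeres: the junction genes Tjp1, Cldn4, Cldn6, Ocln and F11r, the keratins Krt8 and Krt18, and the fluid transport genes Atp1b1 and Aqp3. They were chosen by name, as genes of tight junctions, keratin filaments and cavitation, and all 9 were found among the 55487 genes of the RNA table. The embryos were C57BL/6, made by in vitro fertilization and taken apart by hand at the 8-cell stage, with no further genotype or treatment. RNA and DNA came from the same cell, since magnetic beads held the chromatin while the RNA stayed in solution, so RNA that remained on the beads was not read. The columns used were those of cells 1, 6 and 7 of embryo 1, which the study classed as G1 or G2/M, and of cells 2, 3, 5, 6, 7 and 8 of embryo 2, which it classed as S phase.

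An embryo is 1 biological replicate, and embryo and cell cycle phase divide the 9 cells in the same way, so these cannot be told apart. Differences are therefore set beside the SD between cells, with no test. The number that closes each sample title runs from 11 to 17 in 3 cells (embryo 1 cell 1 and embryo 2 cells 2 and 3) and from 20 to 25 in the other 6. In the study's sample list the first range is the scRR3 form of the protocol, with the larger lysis volume, and the second is scRR1, for which the study describes a bias of coverage to the 3′ end and fewer transcripts in embryos. RNA levels are TPM (a share of the RNA of a cell corrected for transcript length), which keeps no read depth, and an absent signal is written as listed at 0. Between 11058 and 13319 genes had TPM > 1 in a cell. Of 12 embryo and egg marker genes, 12 had a mean TPM above 1, against 1 of 14 markers of cumulus and granulosa cells (Amhr2, at 9.73 to 35.4 TPM) and 0 of 6 sperm markers.

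In a mouse embryo the outer blastomeres become the trophectoderm, a sheet of cells that seals itself with tight junctions and pumps sodium inward so that water follows and a cavity forms. Claudins, occludin and junctional adhesion molecules span the membrane at the seal, and the scaffold protein ZO-1 ties them to the actin cytoskeleton. Keratins 8 and 18 pair into the filaments of simple epithelia, the sodium pump needs a catalytic alpha and a beta subunit, and aquaporins carry water. The 8-cell stage, at which blastomeres compact and polarize, comes before the cavity.

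F11r had the highest RNA level of the 9 genes and Krt8 the lowest. By mean TPM over 9 cells the order was F11r, Tjp1, Aqp3, Cldn4, Ocln, Atp1b1, Krt18, Cldn6 and Krt8. Of the 8 steps between neighbours, 1 was larger than its spread: F11r exceeded Tjp1 in 9 of 9 cells, by 51.8 ± 25.7 TPM (SD, n = 9 cells). The other steps were between 0.879 and 10.8 TPM, each smaller than the SD of the paired difference over cells. F11r ranked 1539th by mean TPM and Krt8 ranked 8371st among the 13612 nuclear genes with a mean TPM above 1, a filter that all 9 genes passed.

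**Figure D1:**
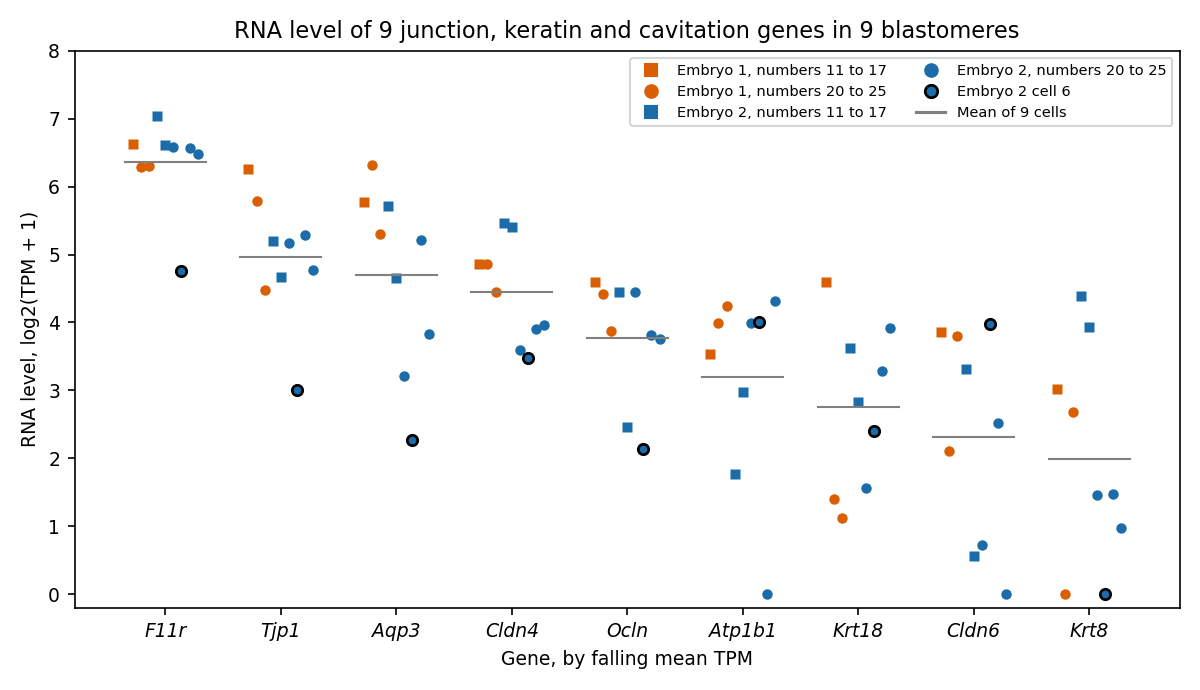
RNA level of each gene, as log2(TPM + 1), in each of 9 cells (1 point per cell; colour, embryo; squares, closing numbers 11 to 17; circles, 20 to 25; grey line, mean of the log2 values; black ring, embryo 2 cell 6). F11r lies highest, and for F11r, Tjp1, Aqp3, Cldn4 and Ocln the ringed cell is the lowest of the 9.

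The adhesion molecule and the scaffold were detected in all cells. F11r encodes JAM-A, an immunoglobulin-family adhesion molecule of the tight junction (chromosome 1, 171437535 to 171464603, plus strand, mm10). Its level was 98.0, 77.6 and 78.2 TPM in embryo 1 cells 1, 6 and 7, and in embryo 2 it ran from 25.9 TPM in cell 6 over a median of 94.2 to 131 TPM in cell 2. The embryos overlapped, and 8 of the 9 cells lay between 77.6 and 131 TPM, with cell 6 of embryo 2 apart below them. The mean was 87.1 ± 27.7 TPM (SD, n = 9 cells). The bases before its start are shown because F11r is the most abundant of the 9, with a GC box (GGGCGG, on either strand) in capitals, from RefSeq on GRCm38.p6, chr1:171437311-171437534, plus strand.
F11r promoter: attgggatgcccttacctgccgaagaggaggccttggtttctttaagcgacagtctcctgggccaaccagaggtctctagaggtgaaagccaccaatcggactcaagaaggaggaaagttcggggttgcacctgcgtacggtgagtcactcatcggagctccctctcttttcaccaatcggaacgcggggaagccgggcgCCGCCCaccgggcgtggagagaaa

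Tjp1 encodes ZO-1 (chromosome 7, 65296165 to 65527781, minus strand). Embryo 1 cells 1, 6 and 7 held 75.6, 54.3 and 21.3 TPM of it, and it lay between 7.04 TPM (cell 6) and 38.2 TPM (cell 7) in embryo 2, with a median of 30.6 TPM. The top 2 cells were of embryo 1, but embryo 1 cell 7 was lower than 5 of the 6 cells of embryo 2. Ocln, the gene of occludin (chromosome 13, 100496507 to 100552718, minus strand), was at 23.2, 20.4 and 13.7 TPM in embryo 1. In embryo 2 it ranged from 3.42 TPM in cell 6 to 20.9 TPM in cell 5, with a median of 12.8 TPM, so its groups overlapped too. Means over 9 cells were 35.3 ± 20.0 TPM for Tjp1 and 14.7 ± 7.23 TPM for Ocln (SD).

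The claudins, which set what the seal lets through, split into one detected everywhere and one that was patchy. Cldn4 (chromosome 5, 134945119 to 134946934, minus strand) was at 28.1, 28.0 and 20.9 TPM in embryo 1. In embryo 2 it was at 43.3 and 41.2 TPM in cells 2 and 3, and at 11.1, 10.1, 13.99 and 14.6 TPM in cells 5, 6, 7 and 8. Embryo 2 thus fell into 2 cells above and 4 cells below every cell of embryo 1, and those 2 cells carry the closing numbers 16 and 17. Cldn6 (chromosome 17, 23679249 to 23682446, plus strand) was at 13.5, 3.31 and 12.98 TPM in the cells of embryo 1 and at 8.91, 0.47, 0.66, 14.7, 4.72 and 0 TPM in embryo 2 cells 2, 3, 5, 6, 7 and 8. It exceeded 1 TPM in 6 of 9 cells, and its highest value lay in embryo 2 cell 6, where F11r, Tjp1 and Cldn4 had their lowest. The promoter of Cldn4 is shown beside that of F11r because both were lowest in that cell (RefSeq, GRCm38.p6, chr5:134946935-134947184, minus strand, GC box in capitals).
Cldn4 promoter: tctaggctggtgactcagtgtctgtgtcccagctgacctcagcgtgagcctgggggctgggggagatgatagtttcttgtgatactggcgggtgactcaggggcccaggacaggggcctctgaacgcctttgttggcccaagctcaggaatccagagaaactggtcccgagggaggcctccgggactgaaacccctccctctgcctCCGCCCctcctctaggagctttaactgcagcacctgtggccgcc

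Krt8 and Krt18, neighbours on chromosome 15 (101996698 to 102004482, minus strand, and 102028180 to 102032027, plus strand), encode partners of 1 filament but did not keep a fixed ratio. The values of Krt8 were 7.15, 0 and 5.40 TPM in the embryo 1 cells and 20.0, 14.3, 1.76, 0, 1.78 and 0.96 TPM in embryo 2 cells 2, 3, 5, 6, 7 and 8. Those of Krt18 were 23.3, 1.65 and 1.18 TPM in the embryo 1 cells and 11.3, 6.11, 1.95, 4.31, 8.71 and 14.2 TPM in those cells of embryo 2. Krt18 exceeded Krt8 in 6 of 9 cells and Krt8 exceeded Krt18 in the other 3. Krt18 was above 1 TPM in 9 of 9 cells, Krt8 in 6 of 9, and Krt8 was listed at 0 in 2 cells in which Krt18 was not.

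Aqp3, a channel for water and glycerol (chromosome 4, 41092722 to 41098183, minus strand), was at 53.9, 79.0 and 38.6 TPM in embryo 1. In embryo 2 it was at 51.3, 24.3, 8.25, 3.83, 36.2 and 13.3 TPM in cells 2, 3, 5, 6, 7 and 8. Of these, 5 lay below all of embryo 1, and cell 2 lay among the embryo 1 values. Atp1b1 encodes a beta subunit of the sodium pump (chromosome 1, 164437109 to 164458355, minus strand). Its level was 10.6, 14.9 and 17.9 TPM in the embryo 1 cells and 2.40, 6.86, 14.9, 15.1, 0 and 18.9 TPM in embryo 2 cells 2, 3, 5, 6, 7 and 8. Its lowest 3 values were all of embryo 2, and so was its highest. The Aqp3 promoter is shown because Aqp3 had the largest difference between the embryos, described next (RefSeq, GRCm38.p6, chr4:41098184-41098433, minus strand, GC box in capitals).
Aqp3 promoter: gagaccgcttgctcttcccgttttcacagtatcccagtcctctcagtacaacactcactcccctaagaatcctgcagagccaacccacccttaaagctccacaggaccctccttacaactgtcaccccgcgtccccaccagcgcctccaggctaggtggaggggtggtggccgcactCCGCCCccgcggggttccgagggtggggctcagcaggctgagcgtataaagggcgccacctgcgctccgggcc

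The embryos were compared as embryo 2 minus embryo 1 in mean log2(TPM + 1), a scale that understates changes of low genes. No gene of the 9 had all cells of 1 embryo above all cells of the other, which held for 0.83% (embryo 2 above) and 2.51% (embryo 2 below) of the 13612 genes. Aqp3 had the largest difference, -1.65, and it was the only difference of the 9 larger than the pooled SD between cells of an embryo, 1.12. Its difference was -0.59 within closing numbers 11 to 17 and -2.18 within 20 to 25. Every embryo difference within 11 to 17 rests on 1 cell of embryo 1. The rank depends on the setting, since Cldn6 was at -2.28 and Aqp3 at -1.74 with a pseudocount of 0.1, and at -1.98 and -1.39 without embryo 1 cell 6. Cldn6 was also ahead within numbers 11 to 17, at -1.93. With 9 cells and a pseudocount of 1, Cldn6 and Atp1b1 had differences of -1.41 (SD 1.48) and -1.08 (SD 1.43), within the spread of cells. Thus 3 of 9 genes were at least 1 lower in embryo 2, beside 10.7% of all genes, and 0 of 9 were at least 1 higher, beside 7.6%. A difference of this size to the lower side without overlap was seen in 0 of the 9 and in 1.87% of all genes.

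The other 6 differences were smaller than the spread of cells. Those of Tjp1, Ocln, Cldn4 and F11r were -0.82, -0.78, -0.42 and -0.07, with SDs of 0.88, 0.86, 0.77 and 0.69. The keratins went the other way, with 0.14 for Krt8 (SD 1.71) and 0.56 for Krt18 (SD 1.27). Krt18 had opposite signs in the number ranges, -1.37 within 11 to 17 and 1.53 within 20 to 25, and so had Cldn4, Krt8 and F11r. The signs within 11 to 17 rest on embryo 1 cell 1 alone, which had 23.3 TPM of Krt18, the highest of the 9 cells. The median over the 9 genes was -0.78, and that over all 13612 genes was -0.04. Genes of the mitochondrial genome took 4.28% to 6.77% of the TPM in embryo 1 and 9.31% to 18.2% in the 4 embryo 2 cells numbered 20 to 25, but 6.82% and 5.98% in the 2 embryo 2 cells numbered 11 to 17. Without these genes, the median of the 9 was -0.70.

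**Figure D2:**
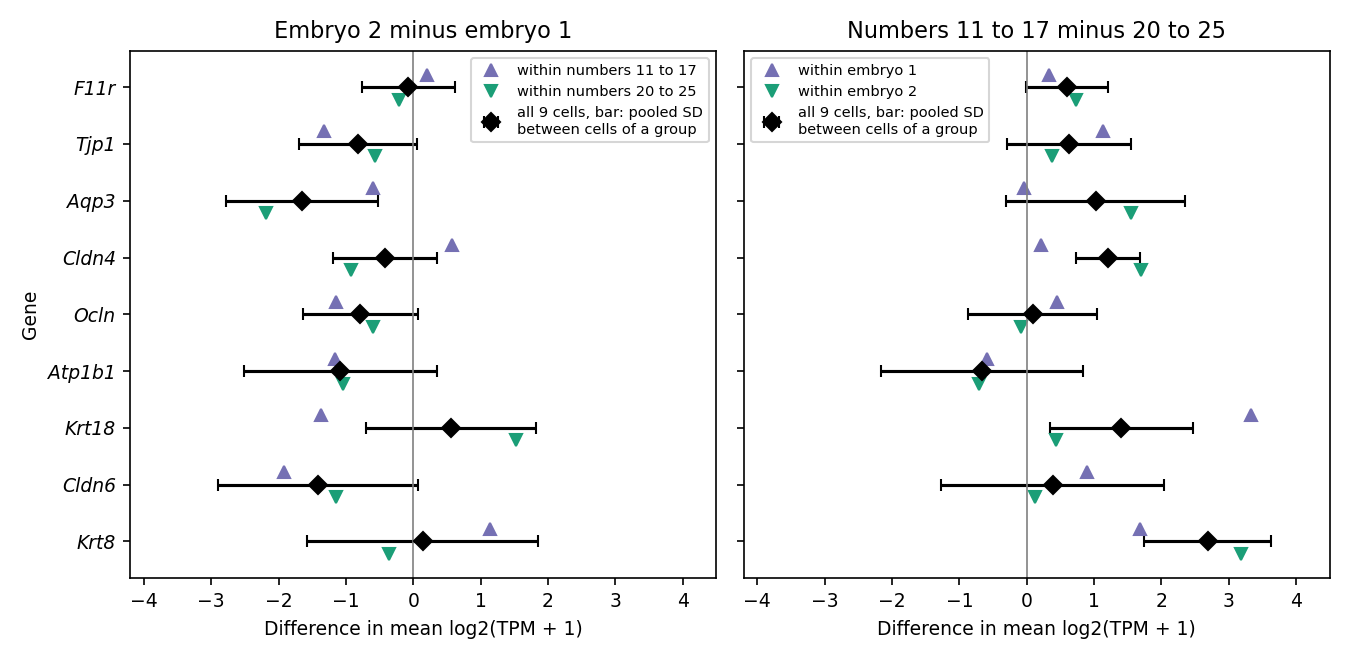
Difference in mean log2(TPM + 1) for each gene between the embryos (left) and between the ranges of closing numbers (right). Diamonds use 9 cells with bars of 1 pooled SD between cells of a group, and triangles give the difference within each range (left) or embryo (right); Aqp3 on the left and Krt8, Krt18 and Cldn4 on the right are larger than their bars.

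The cells were next compared by the range of their closing numbers, and with it by protocol. Krt8, Cldn4 and F11r were higher in all 3 cells numbered 11 to 17 than in all 6 cells numbered 20 to 25, which makes 3 of 9 genes beside 6.13% of all genes. In the opposite direction there were 0 of 9, beside 1.24%. Krt8 was at 7.15 to 20.0 TPM in the first range and at 0 to 5.40 TPM in the second, a difference of 2.69 (SD 0.94). For Cldn4 the difference was 1.203 (SD 0.48), but the nearest cells were at 28.1 and 28.0 TPM, and for F11r it was 0.60 (SD 0.61), with the nearest cells at 97.3 and 95.01 TPM. When the TPM were rescaled without mitochondrial genes, or by a median ratio over genes, 1 of the 9 genes, Krt8, was without overlap. No share of all genes was computed for these scalings.

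Krt18 and Aqp3 were also at least 1 higher in the cells numbered 11 to 17, by 1.40 (SD 1.06) and 1.02 (SD 1.32), so that 4 of 9 genes passed this size, beside 16.1% of all genes. The count was 2 with median ratio scaling, 1 with a pseudocount of 10 and 2 without embryo 1 cell 1. No share of all genes was computed at these settings, and the 16.1% is not their background. With the TPM as deposited and a pseudocount of 1, none of the 9 was at least 1 lower, beside 4.63%. Within the embryos the Krt8 difference was 1.69 in embryo 1 and 3.19 in embryo 2. That of Cldn4 was 0.21 and 1.70, that of Krt18 was 3.34 and 0.43, and that of Aqp3 was -0.04 and 1.55. The values for embryo 1 rest on 1 cell of the first range. Among the 9, only Atp1b1 had a lower mean in the first range, with a difference of -0.66 (SD 1.502). All genes together had a median difference of 0.29 in this comparison, and the 9 genes had a median of 0.63.

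Embryo 2 cell 6 had low levels of several junction genes and of Aqp3. It had the lowest value of the 9 cells, without a tie, for F11r, Tjp1, Aqp3, Cldn4 and Ocln, so for 5 of 9 genes. The same held for 13.9% of all genes, and for 18.7% of those with a mean TPM between 5 and 100, where the 9 genes lie. The summed TPM of the 9 genes was 84.4 in this cell and between 188 and 333 in the other 8 cells. Beside the mean of the other 5 cells of embryo 2, the log2 difference was -2.25 for Aqp3, -2.01 for Tjp1, -1.91 for F11r and -1.64 for Ocln, and Krt8 was listed at 0. The median over all genes was a difference of -0.31, and 23.9% of genes were at least 1 lower in this cell, against 5 of the 9.

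Not every gene followed. Cldn6 was higher by 2.55 and Atp1b1 by 1.40 in cell 6 than in the mean of those 5 cells. Further values of the cell go beside this. It had the fewest genes above 1 TPM (11058), but embryo 1 cell 7 (11088) and embryo 2 cell 8 (11185) were close to it. Its replication score, 62.4% of bins, was the lowest of embryo 2. The cumulus marker Ptx3 was at 6.13 TPM in it and listed at 0 in the other 8 cells. The summed cumulus markers were at 30.2 TPM, the top of the range of 9.84 to 30.2 TPM in embryo 2. In embryo 1 this sum was at 21.1 to 35.4 TPM. Apart from Ptx3, the sum in cell 6 was all Amhr2, and every other marker of the list was listed at 0 there. Amhr2 was at 9.73 to 35.4 TPM over all cells. It was higher in embryo 2 cell 2 and embryo 1 cell 7 than in cell 6. Has2, Tnfaip6, Ptgs2 and Vcan were listed at 0 in every cell. The part of these values of cell 6 in its low levels was not tested. The cell was picked out after its values were seen.

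**Figure D3:**
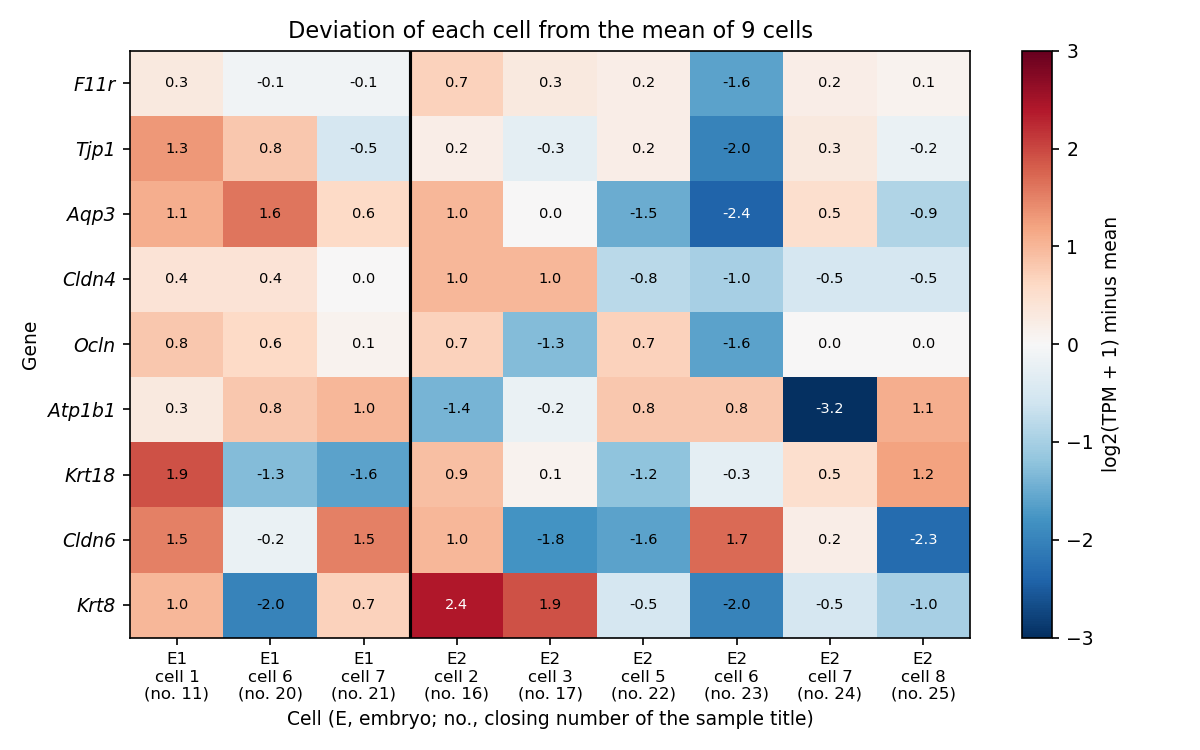
Deviation of log2(TPM + 1) from the mean of 9 cells for each gene (rows) in each cell (columns; E, embryo; no., closing number), with blue below and red above the mean. In the column of embryo 2 cell 6, F11r, Tjp1, Aqp3, Ocln and Krt8 are below -1, Cldn4 is just above it, and Cldn6 is at 1.7.

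How far the genes varied together was described by Pearson's r of log2(TPM + 1) over 9 cells, which share libraries and a fixed TPM total. Of the 36 pairs, 26 had r above 0, with a median of 0.21. The 10 pairs among F11r, Tjp1, Aqp3, Cldn4 and Ocln had a median of 0.65, but these genes were picked for their low value in embryo 2 cell 6, which they share. Without that cell their r ran from -0.22 to 0.64, with a median of 0.18. Tjp1 and Ocln, the scaffold and a membrane partner, had r = 0.83 with the cell and 0.64 without it. For other membrane partners, r was 0.77 and 0.11 for Tjp1 and F11r, and 0.45 and 0.12 for Tjp1 and Cldn4. Krt8 and Cldn4 had r = 0.74 and 0.66. Without the cell the highest r were 0.74 for Cldn6 and Aqp3 and 0.71 for Krt8 and F11r.

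By the spread of log2(TPM + 1) over the cells, F11r and Cldn4 were the steadiest of the 9, with SDs of 0.64 and 0.75, next to a median of 0.78 over the 7384 genes with a mean TPM between 5 and 100. The SDs of Krt8, Cldn6 and Atp1b1 were 1.60, 1.56 and 1.44, above those of 87.9%, 87.2% and 85.1% of these genes. These 3 had mean TPM of 5.71, 6.59 and 11.3 and were each listed at 0 in at least 1 cell. How the SD depends on the level was not examined.

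For each gene with a mean TPM of 10 or more, the genes with the most similar pattern over the 9 cells were found by Pearson's r among 6828 genes. For Aqp3 they were Foxe1 (r = 0.97) and Hand1 (r = 0.95), both transcription factors. For Tjp1 they were Stt3a and Pdss2 (0.95 and 0.94), for Cldn4 Wdr81 and Tyro3 (0.95 and 0.93), and for F11r Dnajc24 and Rabggta (0.95 and 0.95). For Ocln they were Taf1 and Zmiz1 (0.93 and 0.92) and for Atp1b1 Mt1 and Gm9774 (0.93 and 0.90). They are the top of many genes over 9 cells. By Spearman's rho 1 of these 12 stayed among the top 2 of its gene, and over embryo 2 alone 0 did.

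The DNA of the same cells gave the replication state of 40-kb bins. The state of a gene is the sign of the mean over its bins. In embryo 2, 8 of the 9 genes were replicated in all 6 cells, beside 75.5% of the 11091 genes with a state in each of these cells. The exception was Atp1b1, replicated in 5 of 6 cells. In cell 6, 1 of its 2 bins was unreplicated and the bin that holds its start was replicated, a tie that gives no state. Such ties are left out of the 11091 genes, so Atp1b1 is not among them. Over the 9 genes and 6 cells, 53 of 54 combinations were replicated.

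In embryo 1 the genes were called unreplicated except Tjp1 in cell 1, where its 7 bins were called replicated. The study classes the cells of this embryo as G1 or G2/M and notes chromosomal abnormalities in the embryo, so the call is a copy number state and need not mean replication. The same call covered 3.59% of 11452 genes in that cell. On chromosome 7 it covered 1438 of 3327 bins (43.2%), out of 1838 bins with this call in the whole cell, and the stretch around Tjp1 held 32 bins (chromosome 7, 64560001 to 65840000). Tjp1 was at 75.6 TPM in cell 1 and at a mean of 37.8 TPM in the other 2 cells of embryo 1, a log2 difference of 1.13. The 321 genes of chromosome 7 with this call had a median difference of 0.58, and 10491 genes of other chromosomes had one of 0.25. Cell 1 is also the only cell of embryo 1 numbered 11 to 17, so the call and the number range cannot be told apart for Tjp1.

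Transcripts of Tjp1 differed in an alternative coding exon of 240 bases (80 codons), exon 20 of the 28 in Tjp1-202 and absent from Tjp1-201 and Tjp1-207. It lies at chromosome 7, 65314093 to 65314332, minus strand. The exon is printed because the isoforms turn on it, in capitals, with 20 bases of intron on each side in lower case (genome sequence from RefSeq, GRCm38.p6, chr7:65314073-65314352, minus strand).
Tjp1 exon: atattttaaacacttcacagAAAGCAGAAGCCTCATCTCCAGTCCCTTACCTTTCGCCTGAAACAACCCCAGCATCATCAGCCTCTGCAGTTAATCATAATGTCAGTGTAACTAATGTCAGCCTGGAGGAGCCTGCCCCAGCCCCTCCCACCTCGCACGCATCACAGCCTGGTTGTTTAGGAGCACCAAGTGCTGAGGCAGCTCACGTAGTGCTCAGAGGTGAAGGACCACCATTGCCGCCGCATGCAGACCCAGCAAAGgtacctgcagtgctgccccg

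Of the TPM of transcripts that span the site, those with the exon took 68.5%, 61.4% and 73.3% in the cells numbered 11 to 17 (embryo 1 cell 1 and embryo 2 cells 2 and 3). In the 6 cells numbered 20 to 25 the share ran from 95.1% to 100%, with 100% in 3 cells. The mean share was 67.8% ± 5.98 (SD) over the 3 cells of the first range and 98.5% ± 2.09 (SD) over the 6 of the second, and the ranges did not overlap, whichever the embryo. Tjp1-202, the form with the exon, also ends in a longer last exon, of 1503 bases beside 960 bases. Reads from the 3′ end can therefore assign a molecule to it, and the share of the exon itself was not measured. Of the forms without the exon, Tjp1-201 was at 13.3, 6.82 and 5.96 TPM in the cells of the first range and at 0 to 0.38 TPM in the others. Tjp1-207 did not follow this split, at 6.55, 7 and 0 TPM in the first range and at 0 to 1.86 TPM in the second.

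**Figure D4:**
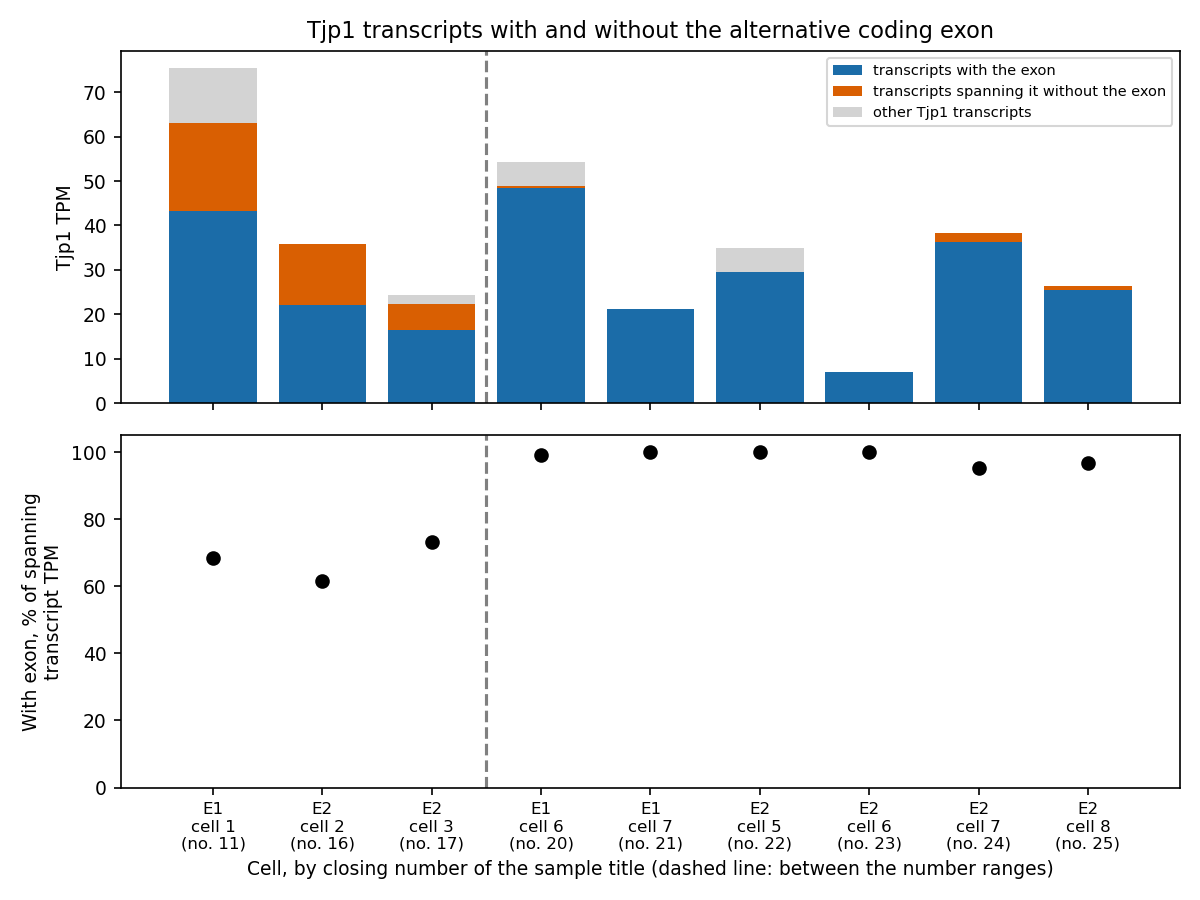
Upper panel, TPM of Tjp1 transcripts with the alternative exon, of those that span it without the exon, and of other Tjp1 transcripts, stacked per cell in order of the closing number. Lower panel, the share with the exon in percent; the 3 cells left of the dashed line lie between 61.4% and 73.3% and the 6 cells right of it between 95.1% and 100%.

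Of the other genes, 5 had a single transcript listed above 0 in any cell. These were Krt8, Krt18, Cldn4, Atp1b1 and Aqp3. F11r-201 took 99.8% of the F11r TPM, Cldn6-202 took 85.5% of that of Cldn6 and Ocln-202 took 67.5% of that of Ocln, over all cells together. Single cells differed. In embryo 2 cells 5 and 7 Cldn6-203 was the only Cldn6 transcript listed, and Ocln-202 took from 31.2% (embryo 2 cell 7) to 100% of the Ocln TPM of a cell. Sums over transcripts and gene values differed by at most 0.01 TPM.

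Within their families the 9 genes were not always the most abundant members. In the counts that follow, a mean TPM above 1 was reached by 24.5% of all nuclear genes. That share covers every annotated entry of any gene type, noncoding ones included. It is therefore not matched to the lists and does not show whether a list is enriched. Cldn7 was the claudin with the highest RNA level, at 213 TPM on average and 83.0 to 347 TPM over cells, which is 9.08 times the mean of Cldn4 and 32.4 times that of Cldn6, and it exceeded both in 9 of 9 cells. Among 26 claudin-family genes 6 had a mean TPM above 1 and 15 were listed at 0 in all cells. Cldnd1 and Cldn12 were at 11.6 and 7.399 TPM. Among 15 genes of tight junction scaffolds and junction-associated proteins 13 had a mean above 1. The highest was Ybx3, which encodes a junction-associated nucleic acid binding protein, at 421 TPM. Amot was at 22.3 and Sympk at 20.8 TPM. Of 12 genes of the occludin and junctional adhesion families 7 had a mean above 1, and Cxadr followed F11r at 34.2 TPM, while Marveld2 (tricellulin), Lsr and Marveld3 were at 4.06, 3.53 and 3.48 TPM.

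In the keratin and desmosome lists, Krt8 and Krt18 were 2 of the 3 keratins of simple epithelia, of 6, with a mean above 1. The other was Krt7, at 1.71 TPM, and Krt19 was above 1 TPM in 1 cell. Of 22 other keratins 1 passed, Krt10 at 5.55 TPM, and 16 were listed at 0 in all cells. Among keratin partners and desmosome genes, Jup (plakoglobin) and Pkp4 were at 37.2 and 22.6 TPM, and Pkp2 and Dsp at 4.51 and 2.14 TPM. Of the 16 genes of this list 5 passed.

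For the sodium pump, Atp1b3 exceeded Atp1b1 in 9 of 9 cells, with a mean of 83.8 TPM that was 7.44 times as high. The regulator gene Fxyd4 was at 23.1 TPM and Atp1b2 at 3.91 TPM, and 5 of 14 genes of this list had a mean above 1. Among 12 aquaporins 3 did. Aqp9 was at 58.0 TPM and exceeded Aqp3 in 8 of 9 cells, and Aqp11 was at 30.6 TPM, between 1.29 and 77.7 TPM. The sodium cotransporter gene Slc12a2 was at 168 TPM, far above the exchanger gene Slc9a8 (7.45 TPM), and 5 of 14 sodium entry genes passed. Of 12 transcription factors of the trophectoderm 11 passed, with Klf5 at 265, Tead4 at 84.7, Tfap2c at 83.2 and Yap1 at 60.5 TPM.

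**Figure D5:**
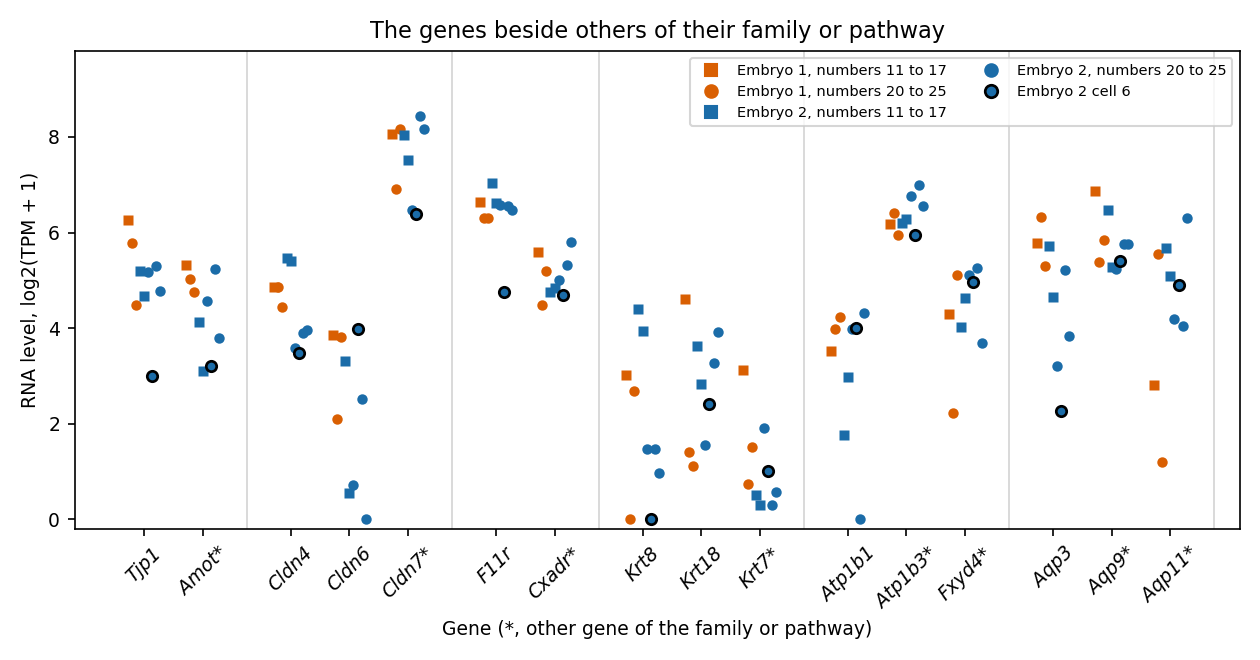
RNA level, as log2(TPM + 1), of the genes and of others from their families or pathways (asterisks), 1 point per cell, with colours and symbols as labelled. Cldn7 lies above Cldn4 and Cldn6, and Atp1b3 above Atp1b1, in each of the 9 cells.

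Over these 10 pathway lists, 50 of the 140 genes other than the 9 had a mean TPM above 1. Between the embryos 7 of the 50 were at least 1 lower and 1 was at least 1 higher in embryo 2, beside 10.7% and 7.6% of all genes, and their median difference was -0.17. Between the number ranges 8 of the 50 were at least 1 higher in the cells numbered 11 to 17, a share close to the 16.1% of all genes. Elf3, an epithelial transcription factor, by 2.28 (SD 0.83), and Cldn9, by 1.24 (SD 0.52), were among those without overlap, which held with a difference of this size for 3.54% of all genes. Elf3 was at 76.6 to 93.3 TPM in that range and at 4.23 to 35.1 TPM in the other. The embryo marker Gdf9, a growth factor of the egg, did not overlap between the embryos. Its values lay between 2.49 and 3.49 TPM in embryo 1, while those of embryo 2 began at 4.25 TPM and reached 13.98 TPM. No overlap with embryo 2 at least 1 higher held for 0.558% of all genes. Of the 12 embryo markers, 3 were at least 1 higher in embryo 2 and 0 at least 1 lower. Only Gdf9 among these 3 was without overlap, and the median difference of the 12 was -0.32.

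In the promoter windows of RefSeq, 250 bases before to 50 after a start, 4 motifs were counted on both strands. The 9 genes had 10 windows. GCCNNNGGC, the site of TFAP2 factors, was in 4 of the 10 (F11r, Tjp1, Ocln and Krt18), beside 16.6% of 32851 windows. The GC box GGGCGG was in 8 of the 10, those of 7 genes, beside 35.7%. The TEAD site GGAATG was in 1 (Cldn6), beside 14.7%, and AACCGGTT, the site of GRHL factors, in 0, beside 0.146%. The 32851 windows were not matched for base composition, so these shares do not show whether a motif is enriched. In the members, 1 match overlapped a match of another motif. The stretches of F11r, Cldn4 and Aqp3 printed above end before the annotated start, and each holds 1 GC box.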

How the data were processed

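The RNA and DNA of single blastomeres were separated on beads and sequenced. The authors deposited TPM for genes and transcripts, 1 column per cell, after ramdaq processing with Hisat alignment to mm10 and RSEM with GENCODE M25. They also deposited a replication state score per 40-kb bin, 1 for replicated, -1 for unreplicated and 0 for no data, from bwa (0.7.17-r1188 per the labels) and AneuFinder. The table has no bins of 4 chromosomes, and no listed gene lies on them. RNA headers repeated 1 cell name, so columns were assigned by the number that closes each title. Of 13 labelled cells 9 were used and 4 were not analysed here, and 14 columns per table belonged to no labelled sample.

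Genes were named and placed by GENCODE M21 (same build). Means and differences of log2(TPM + 1) were computed over cells with Python 3.11.15, numpy 2.4.6 and pandas 2.3.3, tested on simulated data, and drawn with matplotlib 3.10.9. Differences are described beside the pooled SD, with no p-value, since cells are not replicates. TPM keep no depth, so no counting interval was computed. Genes with a mean TPM above 1 formed the background. The 9 genes, the lists and the rules were chosen with earlier results of these data known. Named were all 9 genes, up to 4 others per list with the highest mean TPM, any with a mean above 1 that differed by at least 1 without overlap, and the 2 most similar genes of each with mean TPM of 10 or more. Some genes that this rule names are not reported here. Ptx3 and the cell-wise patterns were picked after their values were seen. Alternatives covered pseudocounts, scalings, single cells left out and other thresholds.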

Additional observations from a re-analysis of the deposited data

Results flagged for a closer look

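Of 11 sets of values over the 6 cells of embryo 2, 2 had a cell far from the others by Dixon's criterion at the 95% level, which chance meets in about 1 of 20 sets. For Tjp1, cell 6 was at 3.01 on the log2(TPM + 1) scale, with the nearest cell at 4.66 and the highest at 5.29. For F11r, cell 6 was at 4.75, with the nearest cell at 6.47 and the highest at 7.04. Both are the same cell, so they are not separate observations.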

How the results depend on the processing

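The median difference between the embryos over the 9 genes stayed below 0 under every alternative run. It was -0.78 as reported, -0.41 with a pseudocount of 10, -1.14 within numbers 11 to 17, and between -0.92 and -0.45 when a cell was left out (-0.45 without embryo 1 cell 1, -0.49 and -0.51 without embryo 2 cells 6 and 7). That between the number ranges stayed above 0. It was 0.63 as reported, 0.39 with median ratio scaling, 0.43 within embryo 2, 0.45 within embryo 1 and 0.997 with medians over cells, and between 0.60 and 1.12 when a cell was left out, with the highest without embryo 2 cell 3. The mean share of Tjp1 transcripts with the exon was 86.8% to 91.6% when a cell was left out. Of 9 genes, 3 were at least 1 lower in embryo 2, and this was 1 with a pseudocount of 10 and 2 to 3 when a cell was left out. Without overlap between the embryos were 0 genes, but 3 within numbers 20 to 25. When a cell was left out, the count was 0 to 2 (1 without embryo 1 cell 1, 2 without embryo 1 cell 7 and 1 without embryo 2 cell 2). Without overlap between the number ranges were 3, but 1 without mitochondrial genes, 1 with median ratio scaling, and 3 to 4 when a cell was left out. Counts within numbers 11 to 17 and within embryo 1 are not given, because 1 of the groups there is 1 cell. Groups of fewer cells are more often without overlap, and no share of all genes was computed for these settings. At least 1 higher in numbers 11 to 17 were 4, but 1 with a pseudocount of 10, 2 with median ratio scaling, and 2 to 5 when a cell was left out (2 without embryo 1 cell 1). For none of these counts was a share of all genes computed at the alternative settings. The cause was not tested.

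The lowest cell of 5 genes, embryo 2 cell 6, kept a count of 5 under both rescalings and within numbers 20 to 25. Within embryo 2 the count was 6, and no share of all genes was computed for these settings. This count and the counts without overlap or past a difference were added after seeing the data. In the order of levels 5 of 9 genes held their place by median TPM and 5 within embryo 1. The share of all genes without overlap between the embryos and with a difference of at least 1, 2.42%, was 0.642% with no filter and 0.786% with a difference of at least 2. Listed pathway genes above the limit were 50 at TPM 1, 82 at TPM 0 and 29 at TPM 5. Of the 12 similar genes 1 stayed by Spearman's rho and 0 over embryo 2. For single genes, 2 of 153 differences between embryos and 6 of 144 between number ranges moved by more than their SD, and 13 and 8 changed sign. The median of all genes between the number ranges was 0.29 as deposited and 0.09 with median ratio scaling, and between the embryos -0.04 and -0.01. No paired analysis was possible because no difference between groups was tested and the shared cell numbers only name cells. TPM keep no depth, so what depth limits cannot be given.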
